A study of Homo sapiens with 6 samples.

Results

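The genes described here are members of the Notch pathway, taken by their names from the gene table of PC9 cells: the ligand genes DLL1, DLL4, JAG1 and JAG2, the receptor genes NOTCH1, NOTCH2 and NOTCH3, and the target genes HES1, HES4 and HEY1. They are 10 of the 58174 genes in the table. PC9 is an established human lung adenocarcinoma cell line. Of 6 RNA-seq libraries, 3 came from PC9 cells given an antagomir (a chemically modified antisense oligonucleotide) against tsRNA-5001a, a fragment of a transfer RNA, and 3 from PC9 cells given a negative control antagomir; these are called knockdown and control here. The labels give no dose or time. They do not say whether replicates were grown separately, so a p-value here reflects only how much these libraries vary, possibly for technical reasons. The tsRNA is not among the genes counted, so its knockdown was not checked. The genes were picked with the difference between these groups already known. Their differences between the groups are therefore a description, and no p-value is given for them.

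Notch signalling passes between touching cells. A ligand of the Delta-like or Jagged family on one cell binds a Notch receptor on its neighbour, the receptor is cut first by an ADAM protease and then by gamma-secretase, and the freed intracellular domain enters the nucleus, where it joins the DNA-binding protein RBPJ and a Mastermind coactivator to switch on HES and HEY genes. These encode repressors of transcription, and HES1 also represses its own gene. In the lung, Notch signals help to set the balance of secretory, ciliated and neuroendocrine cells, while DLL4 is best known from the endothelium of sprouting blood vessels.

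The 250 bases upstream of the RefSeq start (GRCh38.p14) are shown for 3 of the genes, because HES1 and HES4 carry the core of the RBPJ site close to their start and DLL4, the gene that differed most between the groups, does not. Each is written 5′ to 3′ on the gene's own strand, with capitals for the RBPJ core TGGGAA and for the TATA-like run TATATA. The HES1 window is chr3:194135898-194136147 on the plus strand, the HES4 window chr1:1000098-1000347 on the minus strand and the DLL4 window chr15:40929090-40929339 on the plus strand.
HES1: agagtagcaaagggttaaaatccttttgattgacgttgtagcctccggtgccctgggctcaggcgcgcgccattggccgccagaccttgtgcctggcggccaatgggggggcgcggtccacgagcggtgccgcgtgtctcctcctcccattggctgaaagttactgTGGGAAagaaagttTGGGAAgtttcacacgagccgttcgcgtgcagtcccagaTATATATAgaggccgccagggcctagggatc
HES4: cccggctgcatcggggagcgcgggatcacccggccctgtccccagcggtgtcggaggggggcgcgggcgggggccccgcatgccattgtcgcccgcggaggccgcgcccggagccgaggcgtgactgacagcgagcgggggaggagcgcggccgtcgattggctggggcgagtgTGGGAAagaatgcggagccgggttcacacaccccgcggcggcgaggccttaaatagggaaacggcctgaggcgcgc
DLL4: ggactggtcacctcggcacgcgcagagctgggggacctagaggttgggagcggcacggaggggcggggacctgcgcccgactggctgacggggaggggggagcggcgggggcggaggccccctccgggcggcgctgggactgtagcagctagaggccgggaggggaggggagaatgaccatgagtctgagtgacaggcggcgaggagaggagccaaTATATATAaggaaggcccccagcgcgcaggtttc

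Searched on both strands (TGGGAA or TTCCCA), HES1 held the core at positions -84 and -70 from its start and HES4 at -76. In both genes the copy at -84 or -76 had a G before it, which makes the longer form GTGGGAA (or TTCCCAC). RefSeq windows were found for 8 of the 10 genes, all but DLL1 and HEY1. Of these 8, HES1 and HES4 matched TGGGAA, and the same 2 matched GTGGGAA, which contains it. Of 35116 windows of the same length, 20.8% held TGGGAA and 5.43% held GTGGGAA. HES2, HES5, HES6, HES7, HEY2, HEYL and NRARP, other genes of the pathway, were searched as well. GTGGGAA stood in the windows of HES5, HEYL and HEY2. HES2, HES6, HES7 and NRARP gave no match to either form, though for HES2, HES6 and NRARP a missing window would also give none. The run TATATA, found in 3.73% of all windows, began at -34 and, overlapping, at -32 in DLL4, and at -31 and -29 in HES1. A match is only a match of letters, and no protein binding was measured.

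Total gene counts were 32342017 to 40066223 per library. The epithelial keratin genes and EGFR were abundant, with KRT8 at a mean of 4930 TPM (transcript abundance scaled to gene length and library) in the control, but the surfactant gene SFTPC was near 0. The neuroendocrine marker INSM1 and the endothelial markers ERG and EMCN had 0 counts in all 6 libraries. In bulk RNA, fewer cells with a transcript and less of it per cell cannot be told apart.

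Per gene length, NOTCH3 was the most abundant of the 10 genes in the control, at 102 ± 22.0 TPM (SD, n = 3). HES1 followed at 42.4 ± 2.38 and NOTCH2 at 41.3 ± 10.6 TPM, whose libraries overlapped. HES4 at 18.3 ± 1.25, JAG1 at 17.5 ± 1.90, JAG2 at 12.4 ± 4.66 and NOTCH1 at 12.0 ± 3.45 TPM came next, and the library ranges of neighbours in this order overlapped, JAG1 (15.5 to 19.2) and JAG2 (8.36 to 17.5) included. HEY1 was at 2.95 ± 0.393, DLL4 at 0.280 ± 0.158 and DLL1 at 0.0919 ± 0.0343 TPM. After knockdown DLL4 stood at 5.94 ± 1.18 TPM, beside HEY1 at 5.14 ± 1.35.

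Of the 10 genes, 9 passed the filter on low counts and entered the fit across 19040 genes. DLL1 did not. With edgeR's quasi-likelihood test and a Benjamini-Hochberg adjusted p under 0.05, 1 of the 9 was called, DLL4, higher after knockdown; the share called among all genes was 1.17%, with 1.1% called higher and 0.0735% called lower. The CPM of the groups (counts scaled to library size, with TMM) did not overlap for DLL4 and HEY1, 2 of 9, against 24.3% of all genes. The median log2 fold change of the 9 was 0.01, against 0.05 over all genes tested. Since these genes were chosen on this difference, nothing is read from these counts.

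**Figure D1:**
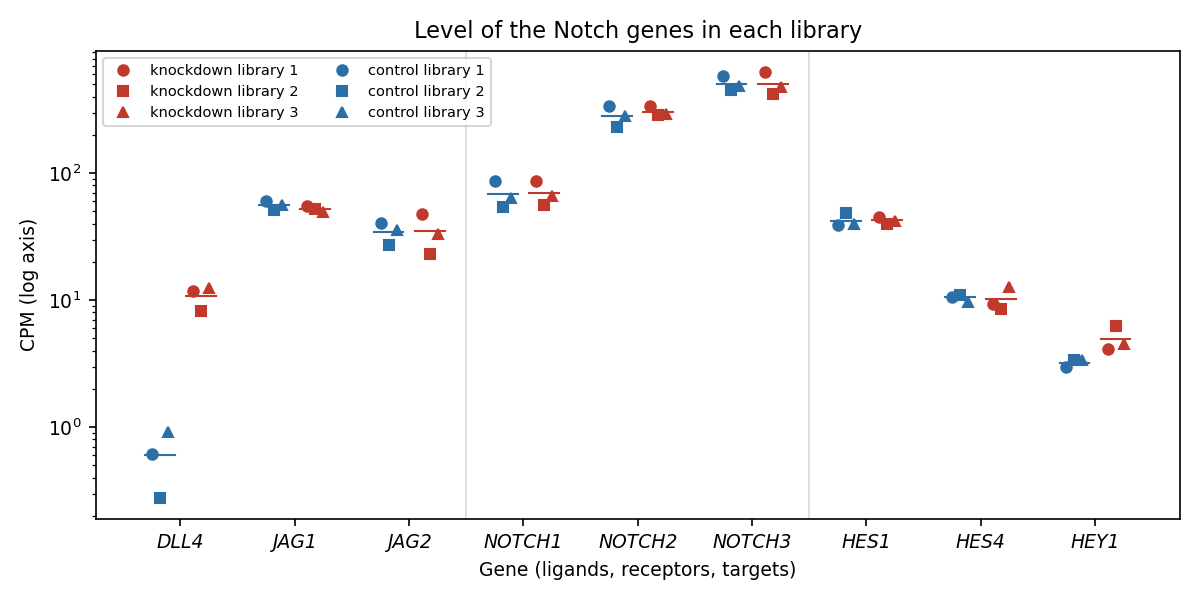
Level of 9 Notch pathway genes in each library, in CPM on a log axis; red points are knockdown and blue points control libraries, marker shapes give the library number and horizontal lines the group means. DLL4 lies between 8.18 and 12.5 CPM after knockdown and between 0.279 and 0.916 in the control; HEY1 is separated more narrowly, and the other 7 genes overlap. DLL1, with at most 8 counts in any library, is not drawn.

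Among the ligand genes, DLL4 (ENSG00000128917; chromosome 15, 40929340 to 40939072, plus strand) encodes a Delta-like ligand that activates Notch receptors. Knockdown libraries 1, 2 and 3 held 448, 278 and 531 counts of it, and the controls, in the same order, held 23, 9 and 35. In CPM this was 11.8, 8.18 and 12.5 against 0.615, 0.279 and 0.916. The lowest knockdown library was far above the highest control library. This was a 17.6-fold difference (log2 4.14, standard error 0.39). Across the other settings that kept the gene, leaving out each library among them, it ran from 3.81 to 4.57. The 9 endothelial markers summed to 31.4 to 40.8 CPM after knockdown and 20.8 to 37.3 in the control, ranges that overlap. Most of that was CDH5 (log2 fold change 0.10, edgeR adjusted p 0.899) and PECAM1 (0.32, edgeR adjusted p 0.354). Of the 3 markers tested 0 were called by edgeR. In CPM, PECAM1 and VWF were higher in every knockdown library than in any control, as were 13.4% of all genes tested. VWF was near the floor, with 11, 16 and 12 counts after knockdown and 10, 4 and 6 in the control (edgeR adjusted p 0.432). Of 7 mural cell markers, 1 was called, against 1.17% of all genes. It was PDGFRB, a growth factor receptor gene that was 7.59-fold higher (edgeR adjusted p 0.00502). RGS5, CSPG4, MCAM and DES were at 0.20, 0.23, 0.19 and 0.95 on the log2 scale and ACTA2 at -0.54, none of them called. PDGFRB was at 6.38 ± 1.81 CPM after knockdown and 0.835 ± 0.183 in the control. The 7 mural markers summed to 491 to 717 CPM after knockdown and 509 to 654 in the control, but most of this was NOTCH3, itself one of the 10 genes. Without NOTCH3 the other 6, chiefly MCAM, summed to 73.8 to 90.4 and 59.9 to 76.1 CPM, and no gene of the list was at 0 in all libraries. The part of either cell type in the DLL4 result was not tested.

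JAG1 (chromosome 20, 10637684 to 10674107, minus strand) and JAG2 (chromosome 14, 105140981 to 105168824, minus strand) encode the Jagged ligands. JAG1 was at 54.8, 52.4 and 49.5 CPM after knockdown and at 60.4, 51.5 and 56.4 in the control. JAG2 was at 48.1, 23.3 and 33.3 against 40.5, 27.2 and 35.9 CPM. Both overlapped between the groups, JAG2 with the wider spread, and their log2 fold changes were -0.10 (standard error 0.12) and 0.01 (standard error 0.26). DLL1 (chromosome 6, 170282206 to 170306565, minus strand), the other Delta-like ligand gene, had 0, 7 and 2 counts after knockdown and 8, 8 and 4 in the control. These counts are too few for a difference to be detectable, and no fold change is given. DLL1 also overlaps FAM120B on the opposite strand, and no source used here says whether the counting used strand.

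The mix of ligand transcripts can be read from the TPM. DLL4 made up 15.4%, 14.5% and 15.4% of the TPM of the 4 ligand genes in knockdown libraries 1 to 3, and 0.796%, 0.477% and 1.45% in the controls. JAG1 remained the largest part in every library, at 45.0% to 60.2% after knockdown and 51.8% to 64.3% in the control, followed by JAG2 in all 6. Together the 4 genes reached 39.2 ± 6.55 TPM after knockdown and 30.3 ± 6.54 in the control, and these sums overlapped between the groups.

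**Figure D2:**
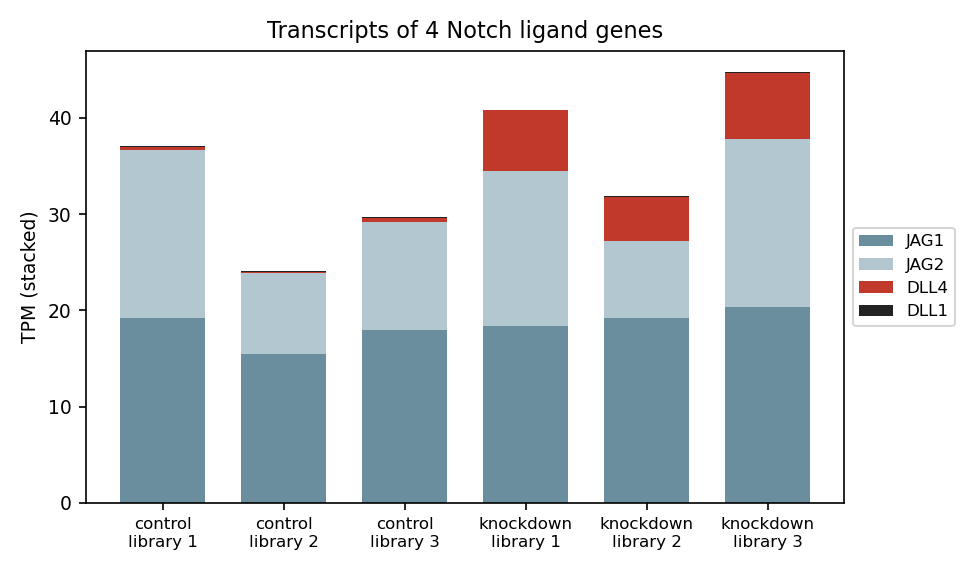
Stacked TPM of the ligand genes JAG1, JAG2, DLL4 and DLL1 in the 3 control and 3 knockdown libraries; the vertical axis starts at 0. The DLL4 layer is 4.62 to 6.90 TPM high in the knockdown libraries and at most 0.429 TPM in the controls, while the JAG1 and JAG2 layers overlap between the groups.

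The receptor genes overlapped between the groups. NOTCH1 (chromosome 9, 136494444 to 136545862, minus strand) was at 86.7, 56.1 and 65.8 CPM after knockdown and 86.6, 54.5 and 64.3 in the control. NOTCH2 (chromosome 1, 119911553 to 120069626, minus strand) was at 338, 286 and 291 against 338, 231 and 281 CPM. NOTCH3 (chromosome 19, 15159038 to 15200981, minus strand) was at 626, 417 and 475 against 587, 450 and 487 CPM. In all 3, libraries of one group differed more than the group means did. Their log2 fold changes were 0.02 (standard error 0.21), 0.11 (0.16) and 0.00 (0.17). NOTCH3 held 63.8% to 66.8% of the receptor TPM after knockdown and 65.0% to 67.4% in the control. NOTCH2NL, a partial copy of NOTCH2, was at 17.3 ± 4.14 TPM after knockdown and 11.1 ± 1.79 in the control (edgeR adjusted p 0.238 in the count fit), and reads of the copy and of NOTCH2 could be split between them.

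Among the targets, HES1 (chromosome 3, 194136145 to 194138732, plus strand), the main HES repressor gene downstream of Notch and one with the TGGGAA copies on its own strand shown above, was at 45.2, 39.9 and 42.4 CPM after knockdown. In the control it was at 38.9, 48.9 and 39.5 CPM, so that the control range enclosed all knockdown libraries. HES4 (chromosome 1, 998962 to 1000172, minus strand), a related repressor gene, was at 9.38, 8.54 and 12.7 against 10.6, 11.0 and 9.74 CPM. Here the knockdown range enclosed the controls. The log2 fold changes were 0.00 (standard error 0.14) for HES1 and -0.03 (0.19) for HES4.

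HEY1 (chromosome 8, 79764010 to 79767863, minus strand), a repressor gene of the HEY branch of Notch targets, was at 4.12, 6.30 and 4.53 CPM after knockdown and at 2.97, 3.35 and 3.35 in the control. Every knockdown library lay above every control library. This was a 1.55-fold difference (log2 0.63, standard error 0.22), and HEY1 was not called under any of the 15 settings tried. In data simulated with a common spread for all genes (biological coefficient of variation 22.9%), 4.48% of 1.5-fold changes were called. The changed genes there were of many levels, and real genes differ in spread, so this is not a rate for HEY1 itself.

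The deposited TPM gave a shifted picture of the same genes, in which the groups did not overlap for 3 members (DLL4, HES1 and HEY1) and for 30% of all tested genes. All 8 members other than DLL4 that were tested had a higher mean TPM after knockdown, with log2 ratios from 0.14 for JAG1 to 0.80 for HEY1. Over all tested genes the median log2 ratio of mean TPM was also above 0, at 0.28. HES1 was the one gene whose groups separated on this scale only, at 50.7, 49.0 and 50.3 TPM against 41.4, 45.1 and 40.7. Its log2 ratio was 0.24, below the shift of all genes. The gene length implied by the authors' FPKM and counts also varied between libraries. For JAG2 it ran from 4461 to 6990 bases, while for HES1 it ran only from 1948 to 2005, so a TPM difference of JAG2 mixes counts and this length.

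The other genes of the pathway were taken from lists by role. These lists were drawn up with earlier results of these data known, so their counts too are a description. Of 83 listed, 79 were in the table and 69 were tested. HES2 was the 1 gene called (1.45%, against 1.17% of all genes), and 0 were called lower. At an unadjusted p under 0.05 there were 13, with 6 higher and 7 lower, or 18.8% against 16.5% of all genes tested. DESeq2 called 3 of the 69, against 3.68% of all genes. Groups did not overlap for 13 of the 69, or 18.8% against 24.3% of all genes, with 6 higher and 7 lower. The median log2 fold change was 0.02. HES2, a further HES family repressor gene, rose from 15.6 ± 1.37 to 28.2 ± 2.27 CPM (log2 fold change 0.85, standard error 0.14, edgeR adjusted p 0.0367). It was at 30.8, 27.2 and 26.6 CPM after knockdown and at 17.0, 15.6 and 14.2 in the control, with no overlap. The call was lost when any 1 library was left out, giving edgeR adjusted p of 0.0756 at the lowest (knockdown library 2 omitted) and 0.165 at the highest (control library 3 omitted). It was 0.147 with the replicate number as a block.

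Apart from HES2, no list held a gene called by edgeR. Of 6 genes of receptor glycosylation, LFNG, a Fringe enzyme gene that tunes which ligands a receptor answers to, was 1.35-fold higher in the control than after knockdown without overlap (edgeR adjusted p 0.233), and POFUT1, which adds fucose to the receptor, had a log2 fold change of 0.03. Of 9 genes of receptor cleavage, FURIN and the gamma-secretase subunit gene APH1A were the most abundant, with log2 fold changes of -0.09 and -0.29. The 6 genes of ligand endocytosis included EPN1 and the ubiquitin ligase gene NEURL1, at -0.22 and 0.50 on the log2 scale (edgeR adjusted p 0.468 and 0.263). The 10 genes of receptor turnover had a median of -0.03, with NUMB, an antagonist of Notch, at -0.21 and the Deltex gene DTX2 at -0.04. The sign for NUMB rested on control library 2, at 130 CPM against 71.2 and 69.3 in control libraries 1 and 3. Without control library 2 the log2 fold change of NUMB was 0.15.

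In the nucleus, RBPJ, the DNA-binding partner of the receptor domain, was at 0.30 on the log2 scale (edgeR adjusted p 0.513). Of the 9 genes of the activator complex, SNW1 and the acetyltransferase gene KAT2A were the most abundant, at 0.07 and -0.45. The CPM of the groups did not overlap for KAT2A (edgeR adjusted p 0.172) or for MAML2, at 0.28 (edgeR adjusted p 0.378). The 13 corepressor genes had a median of 0.00, with HDAC1 at -0.26 and CTBP1 at -0.29, both without overlap (edgeR adjusted p 0.263 and 0.303). CIR1, of the same list, went the other way without overlap, at 0.47 (edgeR adjusted p 0.202). Of the other ligand and receptor genes 3 of 5 were tested; DLK2 was 1.66-fold higher in the control, without overlap, at an edgeR adjusted p of 0.141, and DNER had a log2 fold change of 0.23.

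Among other target genes, NRARP, a feedback inhibitor of Notch, had a mean of 31.8 CPM in each group and a log2 fold change of 0.00; its TPM, at 32.8 ± 1.40 after knockdown and 28.0 ± 2.57 in the control, did not overlap. CCND1, the cyclin D1 gene, was at 0.02 and CDKN1A, a cyclin-dependent kinase inhibitor gene, at 0.44 on the log2 scale (edgeR adjusted p 0.932 and 0.139). SNAI2, a transcription factor gene of epithelial-mesenchymal transition, was at 0.86 on the log2 scale (edgeR adjusted p 0.0692). In CPM, CDKN1A and SNAI2 did not overlap between the groups. HES7 was at -0.05.

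**Figure D3:**
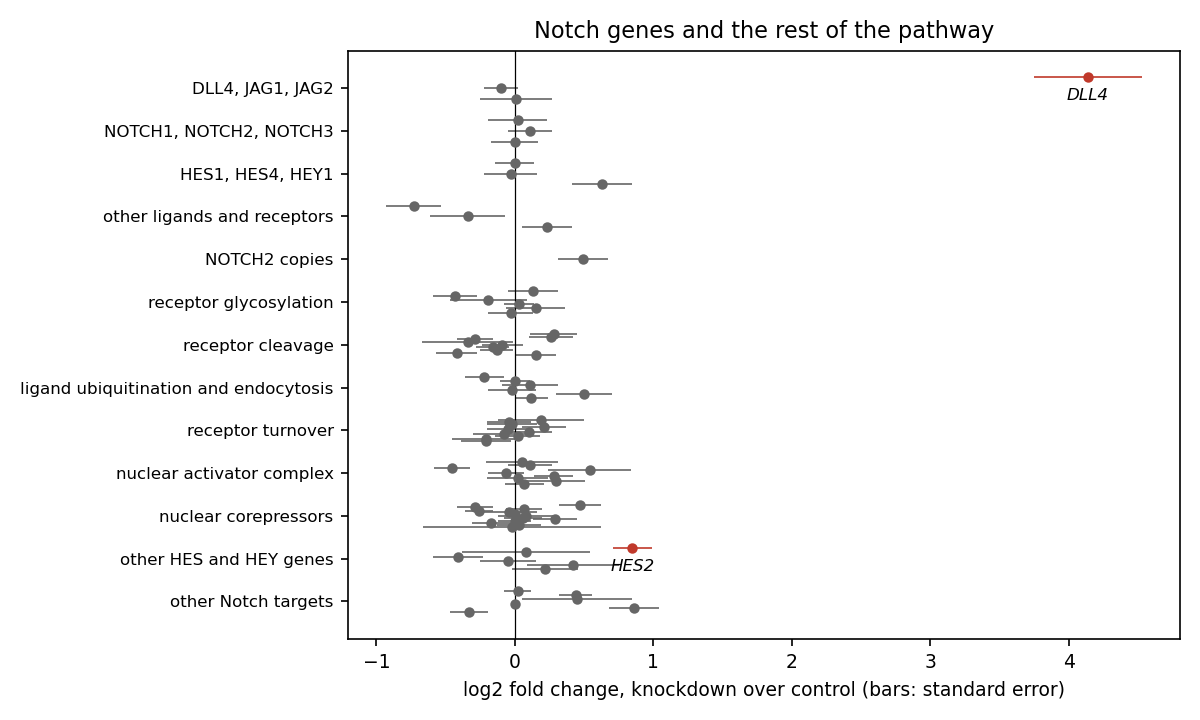
log2 fold change of knockdown over control for the 9 tested Notch genes and 69 other pathway genes in lists by role; points are genes, bars are standard errors (none drawn for genes at a log2 fold change of 0.00 whose error could not be computed), and red marks genes called at an adjusted p under 0.05. DLL4 at 4.14 and HES2 at 0.85 are the genes called; among those not called, SNAI2 is at 0.86, DLK2 at -0.73 and HEY1 at 0.63.

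The position of DLL4 in the genome was examined through its neighbours. The nearest tested gene on the downstream side was CHAC1, 13.9 kb beyond the end of DLL4 and on the same strand (chromosome 15, 40952962 to 40956519). CHAC1 encodes a glutathione-degrading enzyme and is a known target of the stress factor ATF4. Its counts were 800, 423 and 968 after knockdown and 131, 61 and 139 in the control, or 21.1, 12.5 and 22.7 against 3.50, 1.89 and 3.64 CPM. It rose 6.21-fold, with a log2 fold change of 2.64 (standard error 0.32, edgeR adjusted p 0.00973), and passed the test under all 15 settings. Library 2 was the lowest of its group for DLL4 and for CHAC1, in both groups.

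On the upstream side the nearest tested gene was VPS18, 25.4 kb away, with a log2 fold change of 0.16. Within 250 kb on each side 13 genes were tested, DLL4 among them, and DLL4 and CHAC1 were called. The window was drawn around DLL4 because of its difference, so the call of DLL4 was given in advance. CHAC1 was the only neighbour called, while 1.17% of all genes were called. The other 11 had log2 fold changes from -0.46 to 0.78. AC020661.2, the annotated gene between DLL4 and CHAC1 with the opposite strand, had 4, 6 and 15 counts after knockdown and 1, 0 and 3 in the control, too few to be tested. For every 100 counts of CHAC1 there were 54.9 to 65.7 counts of DLL4 after knockdown and 14.8 to 25.2 in the control, and these ranges did not overlap.

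**Figure D4:**
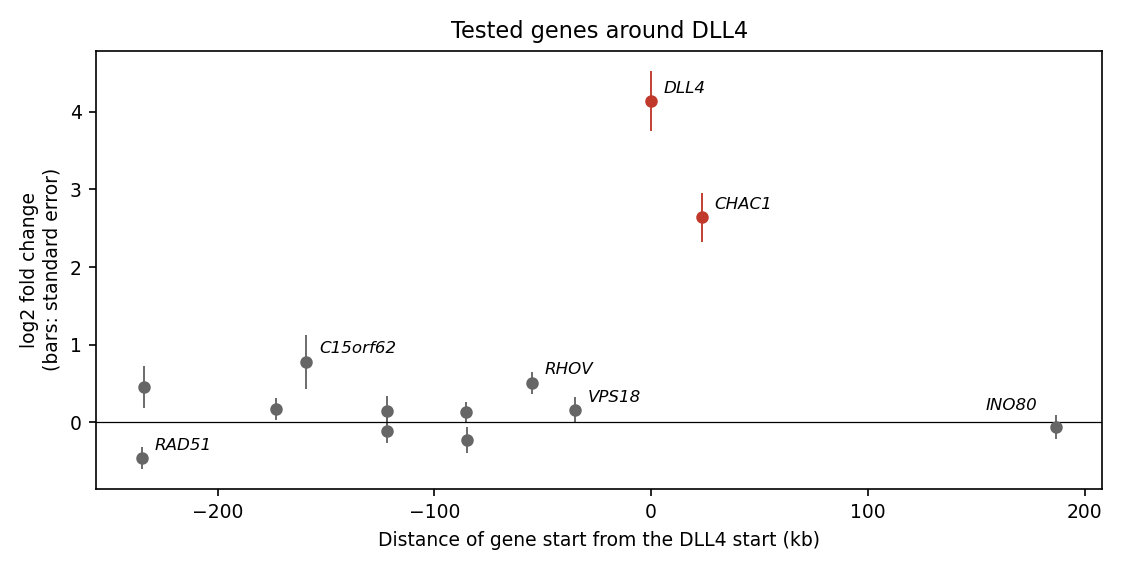
log2 fold change of knockdown over control, with standard errors as bars, for the 13 tested genes within 250 kb of DLL4, by distance of each gene's start from the DLL4 start in kb. DLL4 at 4.14 and CHAC1 at 2.64, in red, were called, and the other 11 genes lie between -0.46 and 0.78.

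Neighbours of the other members were not called. ISG15, an interferon-stimulated gene 0.965 kb from HES4 on the opposite strand, was at 0.40 on the log2 scale (edgeR adjusted p 0.344). SLX4IP beside JAG1 was at -0.10, and NUDT14 beside JAG2 at -0.56 (edgeR adjusted p 0.226). LINC01607, 0.278 kb from HEY1 on the opposite strand, was at -0.13. AL512356.1, which overlaps JAG2 on the same strand, had between 0 and 31 counts per library, and reads in the overlap could be assigned to either.

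The genes whose log2 CPM followed DLL4 most closely over the 6 libraries, among 13711 compared, were CLCN4 (r = 0.997), ZNF599 (0.995), PIK3AP1 (0.995), C1orf145 (0.993) and SLC25A25 (0.992), with CHAC1 in place 7 (0.992). For HEY1 they were SRGAP2C (r = 0.995), NT5E (0.995), PARP9 (0.993), ZNF606 (0.993) and ZMYM5 (0.992). With 2 groups of 3 libraries, such values mostly reflect the difference between the groups and are given as a description. CLCN4, a chloride-proton exchanger gene, and SLC25A25, a mitochondrial carrier gene, rose in the fit, by 0.78 and 0.69 on the log2 scale, against 4.14 for DLL4. CLCN4 kept this call in only 4 of 15 settings and SLC25A25 in 5, and neither kept it when any 1 library was left out.

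Library 2 was the lowest of its group, both after knockdown and in the control, for 5 of 9 members: DLL4, JAG2, NOTCH1, NOTCH2 and NOTCH3. Of all genes of at least 1 log2 CPM, 11.9% showed this pattern, and the share was 20.4% at 50 to 60% GC and 24.2% at 60% GC or more, the classes that hold DLL4, JAG2, NOTCH1 and NOTCH3. The share was 3.94% at 40 to 50% GC, the class that holds NOTCH2, and 1.25% under 40% GC. NOTCH1 lay 0.43 below the mean of libraries 1 and 3 in knockdown library 2 and 0.45 below it in control library 2, on the log2 scale. HEY1 did the opposite, at 0.54 above that mean in knockdown library 2.

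GC content was set beside this pattern. The longest GENCODE transcripts of JAG2, NOTCH1, NOTCH3 and DLL4 had 64.0%, 62.9%, 63.1% and 59.7% GC, and that of HEY1 had 47.3%. NOTCH2 showed the pattern at 49.4% GC, and HES4, with the highest GC of the 9 at 73.9%, did not show it: its lowest control was library 3. Over all genes of at least 60% GC, knockdown library 2 had a median of -0.37 against the mean of the other 2 libraries, and over genes under 40% GC a median of 0.54. In control library 2 the same medians were 0.06 and -0.03. Both libraries numbered 2 were the smallest of their group, with 32342017 and 34623672 counts. The part of GC content or depth in these values was not tested. Without knockdown library 2 the log2 fold change of HEY1 was 0.41, and that of DLL4 was 4.29.

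**Figure D5:**
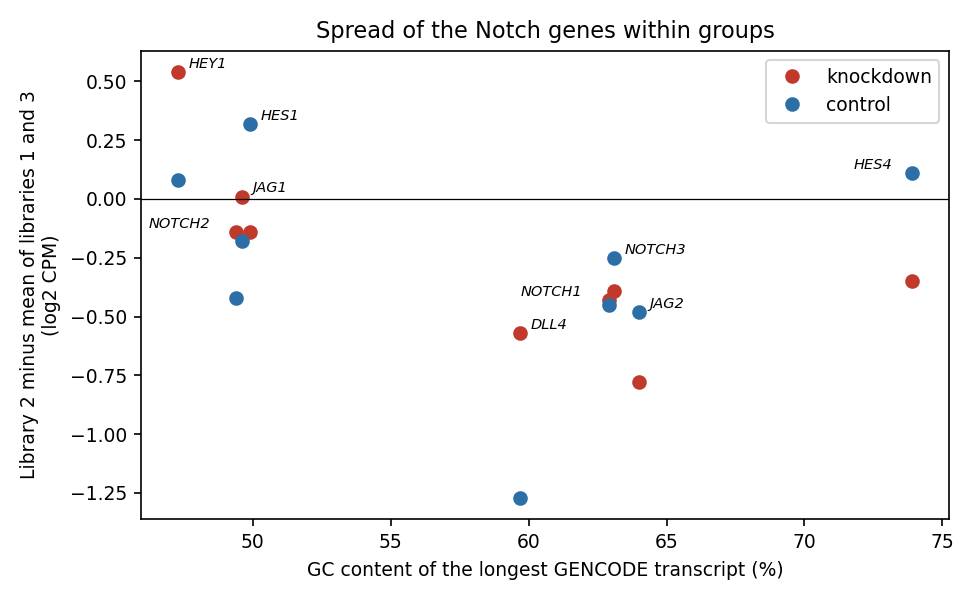
Difference in log2 CPM between library 2 and the mean of libraries 1 and 3 of the same group (vertical axis), by GC content of the longest transcript (horizontal axis), for 9 Notch genes; red points are the knockdown group and blue points the control group. DLL4, JAG2, NOTCH1, NOTCH2 and NOTCH3 lie below 0 in both groups, and HEY1 lies above 0 in both.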

How the data were processed

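The authors sequenced RNA on an Illumina platform, mapped reads after quality control and counted them per gene, per the labels' protocols. The aligner and counter, and any use of strand, are not given in the sources here. Per the file headers, each gene has raw counts, TPM and FPKM for every library. The tests used the deposited counts. The deposited TPM served for levels between genes and as an alternative, and the deposited FPKM for the implied gene length. The submitters' processing notes name hg19, but 55964 of 57836 shared genes have the GRCh38 coordinates of GENCODE 29; of the members 7 of 10 do, and DLL4, JAG1 and NOTCH1 differ by at most 108 bases.

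Low genes were removed with filterByExpr (minimum 10 counts), scaled by TMM and tested with edgeR 4.0.16 in R 4.3.3 (quasi-likelihood F-test, Benjamini-Hochberg adjustment, threshold 0.05). CPM are scaled by TMM, and log2 CPM for likeness and spread used a prior count of 2. Standard errors were back-calculated from the F statistic. No 2 libraries of a group were alike within sampling noise (chi-square per degree of freedom 33.6 to 85.3). The script was tested on simulated data of 18677 genes, all drawn with a common spread. Of 1.5-fold, 2-fold and 4-fold changes 4.48%, 53.7% and 100% were recovered, with 4 unchanged genes called.

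The members and lists were chosen with earlier results of these data known. Named beside the members are pathway genes past the test, the 2 most abundant per list, NOTCH2NL, the nearest tested neighbours and the 5 genes most like DLL4 and HEY1. RBPJ, MAML2, CIR1, SNAI2, NRARP, the markers and the other genes near DLL4 were added after their values were seen. Alternatives were other scalings and filters, DESeq2 1.42.0, limma-voom (limma 3.58.1), omitting each library in turn, the replicate number as a block, and deposited TPM. Sequences are from RefSeq (GRCh38.p14). Python 3.11.15 and matplotlib 3.10.9 made the figures. Samples were grouped by their labels.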

Additional observations from a re-analysis of the deposited data

How the results depend on the processing

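DLL4 was the member called under all settings except the stricter filter (at least 1 CPM in every library), which removed it because its controls lie under 1 CPM and left 0 members called. Of the other tested members 0 were called under any setting, and 7 of them (all but HEY1) changed the sign of a small fold change in some setting. Of 134 values of members under alternatives 3 moved by more than the replicate spread and 0 lost or gained a call. Of 760 values of other named genes 30 lost a call, 2 gained one, 0 called values changed sign, and 32, of genes not called or on the TPM scale (which has no test), moved by more than the replicate spread. Against 223 genes called, there were 701 with DESeq2, 147 with no filter, 25 with the stricter filter and 34 with the replicate block; leaving out 1 library gave 64 to 114. Against 1 other pathway gene (HES2), there were 3 with DESeq2 (DLK2, HES2 and SNAI2), 2 with library size only (HES2 and SNAI2), and 0 with no filter, the stricter filter, the replicate block and when leaving out any 1 library (0 to 0). The cause of these shifts was not tested. Same-numbered libraries deviated from their group means with correlations of 0.0083, -0.079 and -0.026, which gives no sign of pairing by number; with the block DLL4 was still called. With 3 libraries per group, 4.48% of 1.5-fold and 53.7% of 2-fold changes were recovered in the simulated data, which had a common spread for all genes.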
